A study of Mus musculus with 6 samples.

Results

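Tmem176a, Tmem176b, Ms4a4b, Ms4a4c, Ms4a6b and Ms4a6c are 6 of the 47643 genes in a table of RNA sequencing counts from NKT1 cells of the mouse thymus. They encode small membrane proteins with 4 membrane spans. They were picked by symbol when their levels in these same libraries were already known, so their levels and differences are given as a description. Calls among them from the tests over all genes are printed beside the share of all genes called, and nothing is read from them. Invariant natural killer T cells (iNKT cells) carry a nearly fixed T cell receptor for lipids presented on CD1d, and NKT1 is their T-bet-expressing, interferon-gamma-producing branch. The study sorted thymic NKT1 cells of wild-type BALB/c mice by flow cytometry into CD4-positive and CD4-negative cells, and made 3 libraries of each. All 6 libraries share the strain, genotype and tissue. The labels do not give the age of the mice, whether animals were pooled, or whether replicates came from separate animals, so the spread between libraries may in part be technical.

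The MS4A family takes its name from its membrane-spanning 4-domain proteins. Its best known members are CD20, encoded by Ms4a1, the B cell antigen targeted by therapeutic antibodies, and the beta chain of the high-affinity IgE receptor, encoded by Ms4a2 in mast cells and basophils. In mouse T cells, the Ms4a4b protein associates with GITR, a costimulatory receptor, and affects T cell signalling and proliferation. Tmem176a and Tmem176b are neighbouring genes for related proteins of intracellular vesicles. Tmem176b acts as a cation channel in dendritic cells, where it is linked to an immature state and to antigen handling, and both genes are known to be expressed in lymphocytes of the type 17, interleukin-17-producing kind.

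Tmem176a and Tmem176b lie head to head on chromosome 6. In the GENCODE models on GRCm38, Tmem176b (ENSMUSG00000029810.15) runs on the minus strand from 48833818 to 48841496, and Tmem176a (ENSMUSG00000023367.14) on the plus strand from 48840919 to 48847071. The 2 gene spans overlap by 578 bases, of which 81 are exonic in both genes, or 2.13% of the exon bases of Tmem176a and 3.42% of those of Tmem176b. The nearest RefSeq start sites are separated by 108 bases and point away from each other. The sequence between them is shown because it is upstream of both of these starts. It is chr6:48841355-48841502 on the plus strand (RefSeq, GRCm38.p6), with the 108 bases between the 2 starts in capitals, the Tmem176b start to their left and the Tmem176a start to their right.
Tmem176a and Tmem176b: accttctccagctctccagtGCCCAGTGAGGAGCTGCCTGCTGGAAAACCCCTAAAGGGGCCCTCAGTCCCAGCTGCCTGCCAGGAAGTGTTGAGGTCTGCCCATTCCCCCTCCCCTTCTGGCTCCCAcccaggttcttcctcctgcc

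The 4 MS4A genes lie on the plus strand of chromosome 19 within 126.5 kb. Their order is Ms4a4c (ENSMUSG00000024675.19, 11404770 to 11427246), Ms4a4b (ENSMUSG00000056290.15, 11443553 to 11467055), Ms4a6c (ENSMUSG00000079419.4, 11469366 to 11482192) and Ms4a6b (ENSMUSG00000024677.13, 11516512 to 11531256). They form 2 pairs of close copies. The coding sequences of Ms4a4b and Ms4a4c are both 678 bases long and identical at 622 of 678 aligned bases (91.7%), and those of Ms4a6b and Ms4a6c are identical at 548 of 642 (85.4%). By the same alignment, Tmem176a and Tmem176b shared 57.5% of aligned coding bases, and the pairs across these 3 groups shared 51.0% to 58.0%. The likeness of Ms4a4b and Ms4a4c extends to the stretch before and across their starts, where 135 of 152 aligned bases were identical (88.8%). These upstream stretches are shown because the 2 genes differed widely in level. They are chr19:11443422-11443573 for Ms4a4b and chr19:11407528-11407680 for Ms4a4c, both on the plus strand (RefSeq, GRCm38.p6), with capitals at bases that differ or have no partner.
Ms4a4b: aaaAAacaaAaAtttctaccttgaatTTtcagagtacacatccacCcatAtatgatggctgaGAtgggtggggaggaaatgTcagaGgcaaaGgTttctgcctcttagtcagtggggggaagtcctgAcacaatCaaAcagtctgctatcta
Ms4a4c: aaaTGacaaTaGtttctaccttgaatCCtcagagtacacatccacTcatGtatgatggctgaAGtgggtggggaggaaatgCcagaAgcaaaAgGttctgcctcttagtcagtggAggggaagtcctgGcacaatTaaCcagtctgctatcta

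All 6 genes have promoter windows in the RefSeq table, 9 windows in all, each from 250 bases before to 50 after a start. Each window was searched on both strands for the core of the interferon-stimulated response element (2 copies of GAAA with any 2 bases between them), TTCNNNGAA (a STAT motif) and GGTGTG (a T-box half-site). The single match to these 3 motifs was GGTGTG in the downstream of the 2 Tmem176a windows. Over all 32851 promoter windows of the same length, 3.44% held the interferon-stimulated element core, 8.30% TTCNNNGAA and 19.05% GGTGTG.

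The libraries held 40480468 to 53145898 estimated counts, which makes 1 count worth 0.0185 to 0.0261 CPM (counts per 1000000 counts of a library, with library sizes scaled by the TMM method). Where 3 values of a group are given, they are those of replicates 1, 2 and 3 in that order. Cd4, the gene of the sorted marker, was at 508, 401 and 450 CPM in the CD4-positive libraries, against 16.0, 10.9 and 41.2 CPM in the CD4-negative ones. CD4-negative replicate 3 stood apart from the other libraries. It scored 90.2 on the first principal component, which held 46.3% of the variance, where the others scored -32.2 to 2.31. It had the fewest genes with a count (13787, against 15293 to 16267), and a mitochondrial share of 1.33%, like the 1.35% of CD4-positive replicate 1 and below the 3.51% to 5.19% of the others. The replicate 3 libraries also carry another style of library name than replicates 1 and 2, so values are given below within each naming style and without that library.

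The Tmem176 genes were low in both groups and higher in CD4-negative cells. Tmem176a was at 2.20, 1.66 and 2.91 CPM in the CD4-positive libraries, against 6.0, 4.92 and 6.21 CPM in the CD4-negative ones. The lowest CD4-negative library was above the highest CD4-positive one. The means were 2.26 ± 0.63 and 5.71 ± 0.69 CPM (SD, n = 3 each), a ratio of 2.53, and the fitted log2 difference of CD4-positive minus CD4-negative was -1.34 (SE 0.28). These levels rest on 86 to 151 estimated counts per CD4-positive library and 238 to 279 per CD4-negative library. In bulk libraries, fewer cells that express a gene and less of its RNA per cell cannot be told apart.

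Tmem176b had the same pattern. Its CD4-positive libraries were at 3.35, 2.93 and 3.16 CPM, and its CD4-negative ones at 8.35, 5.92 and 10.8 CPM. The groups did not overlap here either. The means were 3.15 ± 0.21 and 8.37 ± 2.46 CPM (SD, n = 3 each), a ratio of 2.66 and a log2 difference of -1.41 (SE 0.27), from 152 to 164 counts against 320 to 415. The CD4-positive libraries lay close together (a coefficient of variation of 6.71%), and the CD4-negative ones were spread more widely (29.3%).

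Tmem176b had more counts than Tmem176a in every library. The ratio of Tmem176b to Tmem176a counts was 1.52, 1.77 and 1.09 in the CD4-positive libraries, against 1.39, 1.20 and 1.74 in the CD4-negative ones, so the 2 groups overlapped in this ratio. Without CD4-negative replicate 3, the log2 difference was -1.27 for Tmem176a and -1.18 for Tmem176b. Within replicates 1 and 2 alone, 2 libraries against 2, the differences were -1.50 and -1.18. Between the 2 replicate 3 libraries they were -1.09 and -1.78, with no replicate check.

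**Figure D1:**
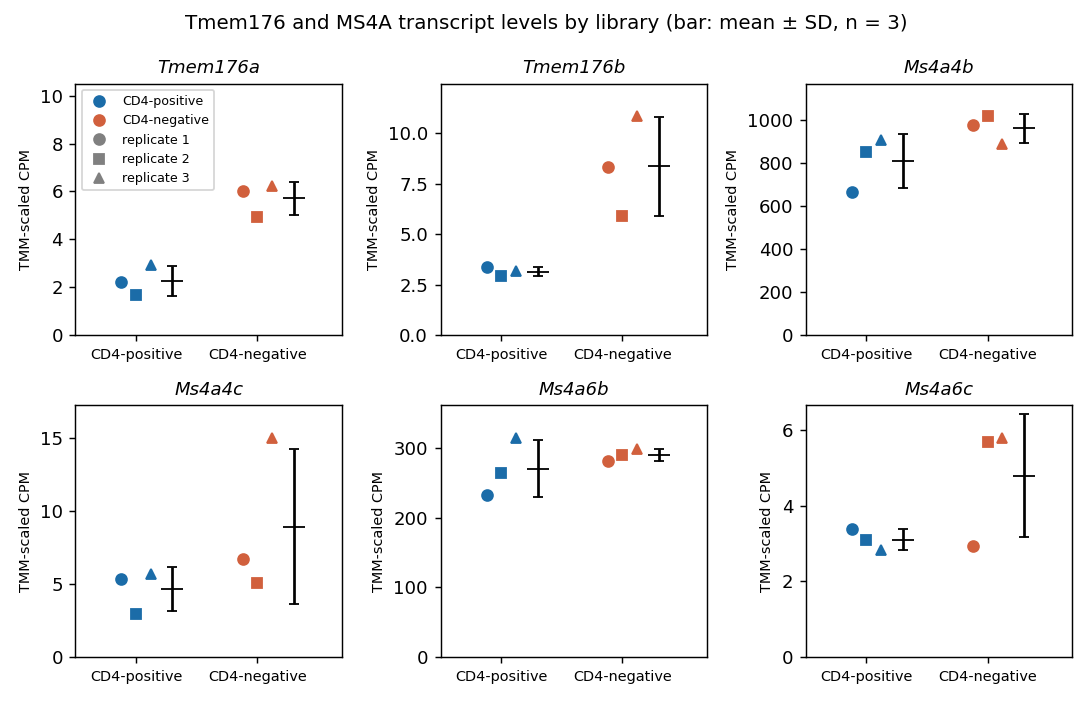
TMM-scaled CPM of each of the 6 genes in each library (vertical axes, linear and starting at 0), with CD4-positive libraries in blue and CD4-negative in orange, a marker shape for each replicate number, and black bars for the mean ± SD of 3 libraries. The groups are separate for Tmem176a (1.66 to 2.91 against 4.92 to 6.21 CPM) and Tmem176b (2.93 to 3.35 against 5.92 to 10.8 CPM) and overlap for the 4 MS4A genes.

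Ms4a4b, the GITR-associated family member, was among the more abundant transcripts of these cells. It was at 664, 850 and 903 CPM in the CD4-positive libraries, against 976, 1014 and 885 CPM in the CD4-negative ones. CD4-positive replicate 1 was the lowest library, and CD4-negative replicate 3 lay below CD4-positive replicate 3, so the groups overlapped. The means were 805 ± 125 and 958 ± 66.3 CPM (SD, n = 3 each), a ratio of 1.19 and a log2 difference of -0.25 (SE 0.18). Ms4a4b took 0.0655% to 0.103% of all counts of a library and ranked at the 98.3rd to 99.1st percentile of the 12760 genes tested, in CPM.

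Ms4a4c, its close copy upstream in the cluster, was far lower, also per kilobase of exon, as given further on. It was at 5.37, 2.91 and 5.69 CPM in the CD4-positive libraries, against 6.71, 5.09 and 15.01 CPM in the CD4-negative ones. The highest value belonged to CD4-negative replicate 3, and of the other 2 CD4-negative libraries, replicate 1 was just above the highest CD4-positive one and replicate 2 was inside the CD4-positive range. The means were 4.66 ± 1.52 and 8.94 ± 5.32 CPM (SD, n = 3 each), a ratio of 1.92 and a log2 difference of -0.94 (SE 0.45). Without CD4-negative replicate 3 this difference was -0.34, and within replicates 1 and 2 alone it was -0.51. Between the replicate 3 libraries it was -1.40. Ms4a4c counts came to 0.342% to 0.810% of the Ms4a4b counts in 5 libraries and to 1.696% in CD4-negative replicate 3, not scaled for length.

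Ms4a6b had the smallest difference between the groups of the 6 genes. It was at 233, 264 and 314 CPM in the CD4-positive libraries, against 282, 290.0 and 299 CPM in the CD4-negative ones. All 3 CD4-negative libraries lay inside the CD4-positive range. The means were 270.3 ± 40.9 and 290.1 ± 8.49 CPM (SD, n = 3 each), a ratio of 1.07 and a log2 difference of -0.10 (SE 0.16), which is smaller than the spread between libraries. Between the 2 replicate 3 libraries the differences of Ms4a6b and Ms4a4b were 0.07 and 0.03, with the sign turned, and within replicates 1 and 2 they were -0.20 and -0.40.

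Ms4a6c, the copy of Ms4a6b, was low in both groups. It was at 3.39, 3.08 and 2.83 CPM in the CD4-positive libraries, against 2.93, 5.68 and 5.79 CPM in the CD4-negative ones. CD4-negative replicate 1 lay within the CD4-positive range and the other 2 lay above it. The means were 3.10 ± 0.28 and 4.80 ± 1.62 CPM (SD, n = 3 each), a ratio of 1.55 and a log2 difference of -0.63 (SE 0.31). The difference was -0.47 without CD4-negative replicate 3, -0.41 within replicates 1 and 2, and -1.03 between the replicate 3 libraries.

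All 6 genes passed the filter on low counts, and all 6 log2 differences were below 0, with a median of -0.78. Over all 12760 genes tested the median was -0.01, and 51.1% of the differences were below 0. Tests over all genes called 27 genes with edgeR at an adjusted p under 0.05 (0.212%), 9 higher and 18 lower in CD4-positive cells. None of the 6 was among them, although 2 had an unadjusted p under 0.05 in edgeR, as had 567 of the 12760 genes tested. DESeq2 called 164 of 15616 genes (1.05%), among them Tmem176a and Tmem176b. The groups did not overlap for 1201 of the 12760 genes (9.41%), and 583 of these were lower in CD4-positive cells (4.57%). This was so for 2 of the 6, both lower. These shares are printed as the background only, since the genes were chosen on this contrast. With 1 library left out at a time, groups that are already apart cannot come to overlap. That Tmem176a and Tmem176b stayed apart is therefore no check of them. The count of the 6 genes with groups apart reached 4 without CD4-positive replicate 3, when Ms4a4b and Ms4a6b joined. It was 3 without CD4-negative replicate 1 (Ms4a6c), replicate 2 (Ms4a4c) or replicate 3 (Ms4a4b). Smaller groups are more easily apart, and the share of all genes was not computed for them, so nothing is read from these counts.

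To compare levels between the genes, CPM was divided by the exon length of each gene in kilobases. Averaged over the 6 libraries, the order was Ms4a4b at 100.4 ± 14.0, Ms4a6b at 62.5 ± 6.36, Ms4a4c at 3.88 ± 2.41, Tmem176b at 2.43 ± 1.37, Ms4a6c at 1.93 ± 0.68 and Tmem176a at 1.05 ± 0.52 CPM per kilobase (SD, n = 6). Ms4a4b was above Ms4a6b in every library, and both were far above the other 4. The means of Ms4a4c, Tmem176b and Ms4a6c differed by less than the SD of Ms4a4c over the 6 libraries, although Ms4a4c was above the other 2 within each of the 6 libraries. In each CD4-positive library the low genes were ordered Ms4a4c, Ms4a6c, Tmem176b and Tmem176a. In CD4-negative replicates 1 and 3, Tmem176b was above Ms4a6c, at 3.52 against 1.43 and 4.57 against 2.83 CPM per kilobase, and in replicate 2 it was below, at 2.50 against 2.77. Per length of the longest annotated transcript the order of the means was the same, with Ms4a4b at 185.7 and Tmem176a at 1.76. The order within libraries was not the same. By that length Tmem176b was above Ms4a6c in every library, in the CD4-positive ones at 2.03 against 1.84, 1.78 against 1.68 and 1.92 against 1.54. It was above Ms4a4c in CD4-positive replicate 2 (1.78 against 1.69). The same held in CD4-negative replicates 1 (5.07 against 3.90) and 2 (3.59 against 2.95), and Ms4a4c was higher in the other libraries.

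**Figure D2:**
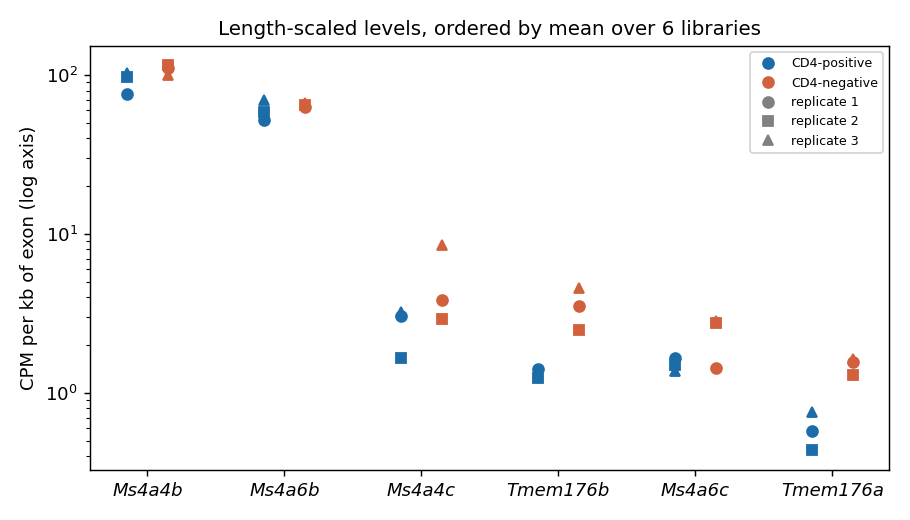
CPM per kilobase of exon (vertical log axis) of the 6 genes in each library, ordered by the mean over 6 libraries, with CD4-positive libraries in blue, CD4-negative in orange and a marker shape for each replicate number. Ms4a4b and Ms4a6b (means 100.4 and 62.5) sit apart from the other 4 genes (means 1.05 to 3.88).

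The close copies within the cluster differed in level per kilobase far more than the groups did. Together, Ms4a4b and Ms4a6b made up 98.2% to 99.3% of the counts of all MS4A genes in every library, and Ms4a6c came to 0.904% to 1.96% of the Ms4a6b counts. The other 15 MS4A genes of the table were at or near 0. Ms4a2, Ms4a3, Ms4a5, Ms4a10, Ms4a12, Ms4a13, Ms4a14, Ms4a15 and Ms4a18 had no count in any library, which allows up to 0.0555 to 0.0783 CPM in a library by counting error alone. Ms4a1, the CD20 gene, reached 2 counts at most. Ms4a1 and Ms4a2 also stand in the lists of B cell and mast cell markers used further on. Ms4a6d alone passed the filter on low counts, at 0.83 ± 0.24 CPM in the CD4-positive libraries, against 0.94 ± 0.20 CPM in the CD4-negative ones (SD, n = 3 each; log2 difference -0.17, not called by edgeR).

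**Figure D3:**
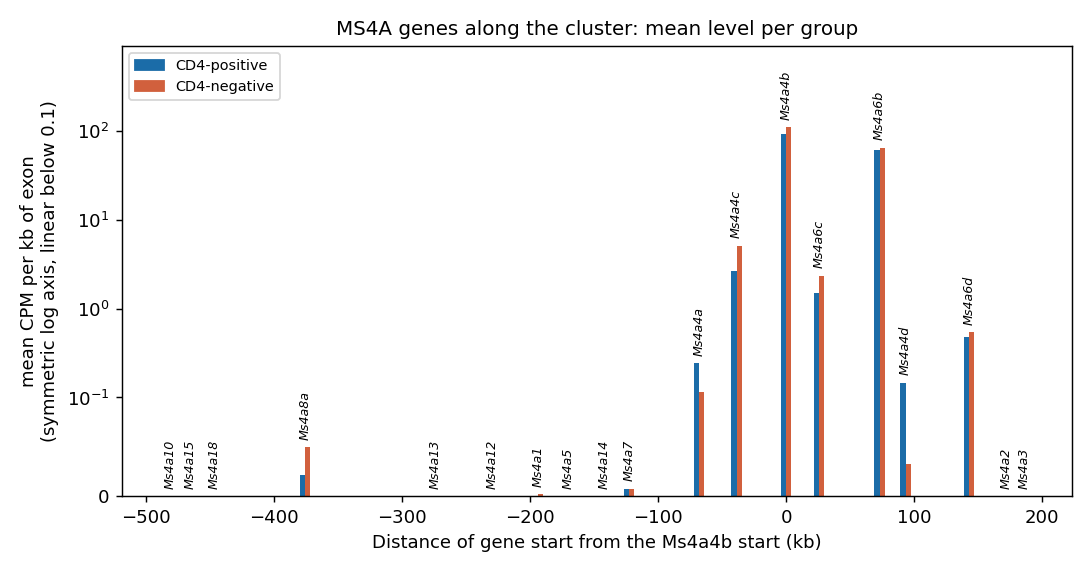
Mean CPM per kilobase of exon of each MS4A gene (vertical symmetric log axis, linear below 0.1, starting at 0) against the distance of its start from that of Ms4a4b in kilobases, with 1 bar for the 3 CD4-positive libraries (blue) and 1 for the 3 CD4-negative libraries (orange). Ms4a4b and Ms4a6b are the tall bars, Ms4a4c and Ms4a6c are low, and 9 genes are at 0.

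Close copies and overlapping genes bear on how reads were assigned. Estimated counts of all 4 MS4A genes were fractional in 6 of 6 libraries, as happens when reads are divided between genes, and those of Tmem176a and Tmem176b were whole in all 6. Of the stretches of 75 bases in annotated transcripts, 1.18% of those of Ms4a4b and 3.78% of those of Ms4a4c also occurred in another gene on either strand, and 66 stretches were common to these 2 genes. One run of 90 identical coding bases is shown, at positions 321 to 410 from the first base of the start codon in both genes.
Ms4a4b and Ms4a4c: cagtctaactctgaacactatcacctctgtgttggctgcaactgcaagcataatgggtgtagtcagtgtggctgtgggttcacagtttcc
Ms4a4b had over 50 times the counts of Ms4a4c in every library, and how the reads of shared stretches were divided between them was not tested. For Ms4a6c, 47.7% of the stretches were also found in BE692007, a transcript annotated on the opposite strand, at 2.18, 2.95 and 5.07 CPM in the CD4-positive libraries, against 3.06, 3.57 and 4.96 CPM in the CD4-negative ones. Ms4a6c also had 22 stretches (1.11%) in common with Ms4a6b, which had far more counts, and 35 (1.77%) with another gene. How reads of these stretches were divided was not tested. The library kit keeps strand, per the labels, but the strand setting of the counting is not given in the sources used here, so the Ms4a6c level is uncertain.

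The genes with the most similar profiles were found by the root mean square difference over the 6 libraries between log2 CPM profiles, each centred on its own mean, among 10842 genes of at least 1 CPM. Nearest to Tmem176a were G0s2 (0.16), Tdrp (0.17) and Emp3 (0.20), and Tmem176b was number 12 (0.26). Nearest to Tmem176b were Lat2 (0.13), Ighd (0.18) and Lgals3 (0.19), and Tmem176a was number 16. The measure itself picks genes that differ between the groups in the same direction. Among them, Lat2, a membrane adaptor, had means of 5.71 CPM in the CD4-positive libraries, against 15.7 CPM in the CD4-negative ones, and Lgals3, the gene of galectin-3, had 19.1 and 59.3 CPM. Ms4a4c was number 111 from Tmem176b. Its own nearest profiles were Pcgf1 (0.22), 5830454E08Rik (0.23) and Fam98c (0.23), and those of Ms4a6c were Cfap126 (0.13), Tmem63b (0.19) and Dnajb13 (0.19). Ms4a4b and Ms4a6b varied by less than 1 log2 unit over the libraries and have no neighbours listed. Their own profiles differed by 0.12.

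Genes around the known roles of the 6 were read from lists, with the edgeR fit over all genes, in which no listed gene was called. As the background for each list, 567 of the 12760 genes tested had an unadjusted p under 0.05 in edgeR. Of all log2 differences 51.1% were below 0, and DESeq2 called 164 of 15616 genes. The list of type 17 genes bears on Tmem176a and Tmem176b. It had 9 of 14 genes tested and all 9 log2 differences below 0 (median -1.23), with 0 at an unadjusted p under 0.05 and 0 called by DESeq2. The groups overlapped for all 9. The gene at the median was near the floor, at means of 0.15 CPM in the CD4-positive and 0.35 CPM in the CD4-negative libraries, with an SE of 1.30. By the mean over all 6 libraries its most abundant gene was Aqp3, at 12.1 ± 2.95 CPM in the CD4-positive libraries, against 15.1 ± 5.28 CPM in the CD4-negative ones (SD, n = 3 each). Rora, named after its values were seen, was at a like level, 12.9 ± 2.34 and 13.1 ± 3.05 CPM (SD, n = 3 each), with a log2 difference of -0.03, and Aqp3 was highest in CD4-negative replicate 3 (21.0 CPM against 9.63 for Rora). Il17f and Il22, cytokine genes of type 17 cells, were at 0 in all libraries. The summed level of the list was 27.1 to 30.7 CPM in the CD4-positive libraries, against 30.8 to 40.9 CPM in the CD4-negative ones, most of it from Aqp3 and Rora. The groups were thus just apart in this sum.

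GITR, the partner of Ms4a4b, is encoded by Tnfrsf18, which was at 117 ± 14.4 CPM in the CD4-positive libraries, against 108 ± 24.2 CPM in the CD4-negative ones (SD, n = 3 each; log2 difference 0.12, SE 0.20). The gene of its ligand, Tnfsf18, was at 0 in every library. Of 20 interferon-stimulated genes, all tested, 13 log2 differences were above and 7 below 0 (median 0.06), with 1 at an unadjusted p under 0.05 and 1 called by DESeq2. Of 12 genes of T cell maturation and exit from the thymus, 10 differences were below 0 (median -0.39), 5 had an unadjusted p under 0.05 and DESeq2 called 2. The 12 genes summed to 3093 to 3144 CPM in the CD4-positive libraries, against 3726 to 4042 CPM in the CD4-negative ones, with no overlap. The most abundant, the interleukin-7 receptor gene Il7r, was at 1308 ± 135 and 1437 ± 87.4 CPM (SD, n = 3 each).

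The cells were checked against markers, since Tmem176 and MS4A genes are also expressed by other cell types. Genes of iNKT and NKT1 identity were summed at 5000 to 5713 CPM in the CD4-positive libraries, against 4847 to 5362 CPM in the CD4-negative ones, with Il2rb, the most abundant, at 1785 ± 499 and 1563 ± 257 CPM (SD, n = 3 each). Of 9 tested, 5 differences were above 0 and 4 below, 1 at an unadjusted p under 0.05 and 0 called by DESeq2. Myeloid and dendritic cell markers, where Tmem176b is best known, had 10 of 18 genes tested, 9 of them with a difference below 0 (median -0.30), 1 at an unadjusted p under 0.05 and 1 called by DESeq2. Their sum was 5.63 to 7.51 CPM in the CD4-positive libraries, against 5.63 to 11.8 CPM in the CD4-negative ones, S100a8 and S100a9 were at 0, and the highest, Cd74, was at 2.51 ± 0.71 and 3.31 ± 2.37 CPM (SD, n = 3 each). Cd74 by library was at 3.33, 2.18 and 2.02 CPM in the CD4-positive libraries, against 2.69, 1.31 and 5.93 CPM in the CD4-negative ones, so its groups overlapped. Of the tested genes of this list, 2 were separate between the groups, in opposite directions, and the others overlapped. H2-Aa, also named after its values were seen, was higher in CD4-positive cells, at 0.70 ± 0.25 and 0.37 ± 0.02 CPM (SD, n = 3 each). Itgax, the gene of CD11c and the gene DESeq2 called, was lower in CD4-positive cells, with at most 37 counts in a library. Itgax was at 0.062, 0.077 and 0 CPM in the CD4-positive libraries, against 0.43, 0.46 and 0.97 CPM in the CD4-negative ones, and was named after its values were seen.

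B cell markers had 4 of 11 genes tested, 3 below 0 (median -0.26), 1 at an unadjusted p under 0.05 and 1 called by DESeq2. Their sum was 5.22 to 6.09 CPM in the CD4-positive libraries, against 7.88 to 8.67 CPM in the CD4-negative ones, the groups being separate as for Tmem176a and Tmem176b. Pax5 was at 0, and Cd22 was the highest at 3.51 ± 0.20 and 4.80 ± 0.34 CPM (SD, n = 3 each). Cd79b, part of the B cell receptor and the gene DESeq2 called, was named after its values were seen. It was at 0.60 ± 0.24 and 2.26 ± 0.22 CPM (SD, n = 3 each), with no overlap. Markers of NK cells and innate lymphoid cells had 7 of 9 genes tested, 5 below 0 (median -0.72), 4 at an unadjusted p under 0.05 and 3 called by DESeq2. Their sum was 267 to 345 CPM in the CD4-positive libraries, against 989 to 2157 CPM in the CD4-negative ones, again with no overlap. Gzma, the gene of granzyme A, was the most abundant of them by the mean over all 6 libraries, at 201, 109 and 178 CPM in the CD4-positive libraries, against 1059, 735 and 1935 CPM in the CD4-negative ones. It made up most of the sum in the CD4-negative libraries. Whether transcripts of this list came from NK cells or from the sorted NKT1 cells themselves cannot be told from bulk libraries. The part of other cell types in the Tmem176a and Tmem176b levels was not tested.

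Immature thymocyte markers had 9 of 10 genes tested, 6 below 0 (median -0.51) and 0 at an unadjusted p under 0.05 or called by DESeq2, with sums of 32.1 to 164 CPM in the CD4-positive libraries, against 48.3 to 222 CPM in the CD4-negative ones. Cd8a, the most abundant by the mean over all 6 libraries, was at 26.1 ± 15.5 and 49.4 ± 25.9 CPM, close to Cd8b1 at 28.9 ± 14.9 and 45.8 ± 34.9 CPM (SD, n = 3 each). Thymic epithelium and stroma had 6 of 9 genes tested, 2 below 0 (median 0.06), 1 at an unadjusted p under 0.05 and 1 called by DESeq2. Their sum was 33.6 to 37.1 CPM in the CD4-positive libraries, against 19.3 to 21.1 CPM in the CD4-negative ones, the reverse of the order of the Tmem176 genes, and mostly Pecam1 at 31.9 ± 1.66 and 16.1 ± 0.75 CPM (SD, n = 3 each). The groups overlapped for the other tested genes of this list, and which cells the Pecam1 transcripts came from was not tested. Mast cell and basophil markers had 1 of 9 genes tested, Hdc at 0.47 ± 0.20 and 0.23 ± 0.24 CPM (SD, n = 3 each), and 5 were at 0 in all libraries. Their sum was 0.29 to 0.64 CPM in the CD4-positive libraries, against 0.052 to 0.80 CPM in the CD4-negative ones.

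**Figure D4:**
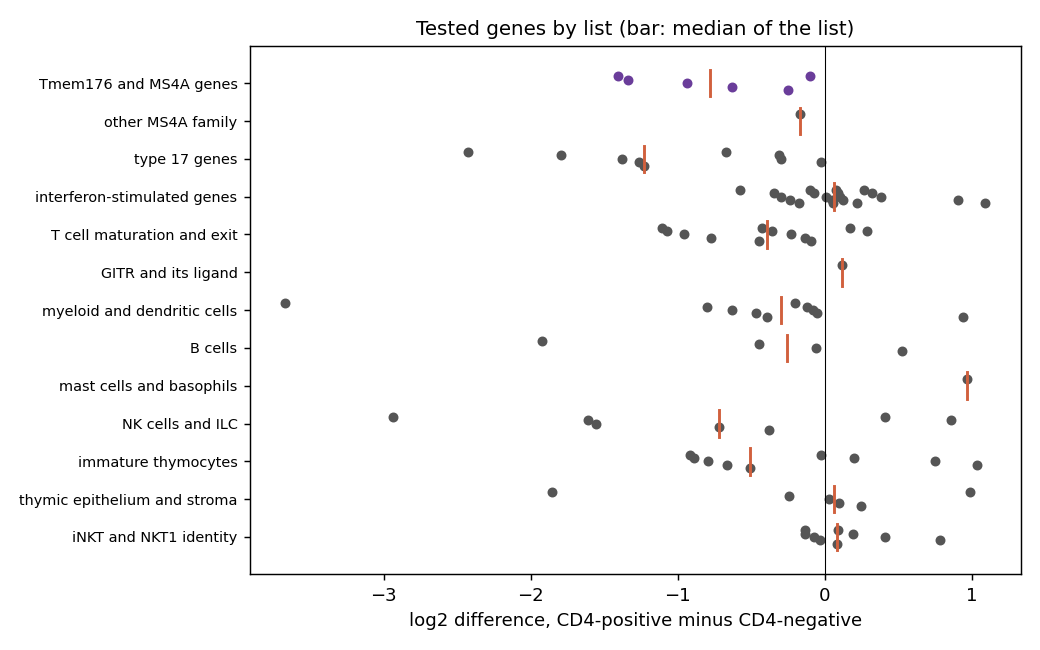
Log2 difference of CD4-positive minus CD4-negative libraries (horizontal axis) for the Tmem176 and MS4A genes (purple) and for each tested gene of the lists (grey), with an orange bar at the median of each list and a line at 0. The 6 genes lie between -1.41 and -0.10 with a median of -0.78, and no gene shown was called by edgeR over all genes.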

How the data were processed

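Paired-end libraries were prepared with a stranded TruSeq mRNA kit from RNA isolated on RNeasy Plus Micro columns, and run on a HiSeq4000, per the labels' protocols. The submitters' processing notes list STAR, Picard, RSEM and mm10, a mouse build, and no versions. The authors deposited 1 table of estimated counts per gene, not normalized. Which annotation and strand setting the counting used is not given in the sources used here.

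Counts were rounded and fitted in R 4.3.3 with edgeR 4.0.16: filterByExpr (12760 genes), TMM scaling, the robust quasi-likelihood test on group, 2-sided, with Benjamini-Hochberg adjustment at 0.05. DESeq2 1.42.0 was an alternative, run on all genes with a count, and gave an adjusted p for 15616 genes. Libraries of a group differed by a chi-square of 59.8 to 431.9 per degree of freedom over genes with at least 10 counts, so none was merged. The script was tested on simulated data, with changes set only in genes above a minimum level. The edgeR fit called 24% of the 2-fold changes and 96% of the 4-fold changes, so it missed most 2-fold ones. Of its 126 calls, 6 were false. CPM in the text uses TMM-scaled library sizes, and profiles a prior count of 2.

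The 6 genes and all lists were chosen with earlier results of these data known. Named genes are the 6, Cd4, tested genes of the other MS4A and GITR lists, the most abundant gene and up to 2 called genes of each other list, and the 3 nearest profiles of each gene spanning at least 1 log2 unit. Some genes and 1 motif are not reported here. Others named are defining markers at 0, and genes said to be named after their values were seen. Promoters are from RefSeq (GRCm38.p6) and gene models from GENCODE M21, where 47224 of 47643 identifiers were found. Protein sequences were not used here; coding bases were aligned instead.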

Additional observations from a re-analysis of the deposited data

How the results depend on the processing

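The log2 differences of the 6 genes kept their sign under all 12 alternatives: RLE and upper-quartile scaling, DESeq2, no filter on low counts, the replicate block, a term for the naming style of the libraries, and each library left out in turn. They ranged from -1.56 to -1.16 for Tmem176a, -1.60 to -1.18 for Tmem176b, -0.34 to -0.13 for Ms4a4b, -1.22 to -0.34 for Ms4a4c, -0.22 to -0.0043 for Ms4a6b and -0.88 to -0.47 for Ms4a6c, with the ends reached by leaving out a library. The count of genes called over the whole table was less stable. Against 27 calls, DESeq2 gave 164, no filter 67, the naming term 11 (10 of them shared with the 27), and leaving out a library 0 to 44. It was 44 without CD4-negative replicate 3 and 0 without any one of the other 5, where 439 to 585 genes had an unadjusted p under 0.05 in edgeR. The replicate block gave 0 calls, with 531 genes at an unadjusted p under 0.05 in edgeR. Deviations of same-numbered libraries correlated at -0.08, 0.34 and 0.04, and 3 of 6 libraries correlated best with their own number. With 3 libraries per group, such correlations cannot decide whether samples are paired. Library names match between the groups for each replicate number, but the labels do not state a pairing. The main fit therefore has no block, and the replicate block stands as the paired alternative. Among the listed genes, against 0 calls, DESeq2 gave 9 (among them Cd79b, Eomes, Gzma, Ifi44, Itgax, Klf2, Ncr1 and Pecam1), no filter 4, and leaving out a library 0 to 4, the 4 being Eomes, Gzma, Klf2 and Ncr1 without CD4-negative replicate 3. Per length of the longest transcript, the mean level of Ms4a4b was 185.7 against 100.4 and that of Tmem176a 1.76 against 1.05, since shorter lengths divide the same CPM. The count of the 6 genes whose groups did not overlap was 2, and 2 to 4 with a library left out, an alternative chosen after seeing the data. This count cannot fall when a library is left out. The causes of the other changes were not tested. Depth limits the low genes: 86 counts of Tmem176a is the smallest count among the 6 genes.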
